A study of Mus musculus with 12 samples.

Results

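Described here are 10 genes known as transcriptional targets of p53 in human or mouse cells, with roles in DNA repair, nucleotide supply, metabolism and secretion or membrane traffic: Xpc, Ddb2, Ercc5, Rrm2b, Polk, Ak1, Dcxr, Cpt1c, Ei24 and Gdf15. They were taken by gene symbol from a count table of 24421 symbols, and all 10 were found in it. Of these, 9 passed the filter on low counts with every library of all 4 groups above its limit of 0.413 CPM, among 14810 genes tested, and Gdf15 did not. CPM is the usual depth-normalised count, here per library size scaled by the trimmed mean of M-values (TMM).

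Libraries of C57Bl/6 mouse embryos with a neural crest-specific change in Eftud2, which encodes a GTPase of the spliceosome, formed 4 groups of 3 without treatment: controls (Eftud2+/-) and mutants (Eftud2-/-), each at embryonic day 9.0 (E9.0) and E9.5. Both genotypes therefore carried an altered Eftud2 allele, and no wild-type embryos were analysed here. The driver of the neural crest-specific change and the number of embryos in a library are not given in the sources used here, and nothing says whether replicates were separate litters, so p-values measure the spread between these samples, which may be technical. The labels name neural crest cells, cranial nerve ganglia and heads as the material. Summed markers of brain neuroepithelium (5 genes, 611 to 777 CPM over all libraries) stood above those of neural crest (7 genes, 184 to 350 CPM) and of cranial ganglia (7 genes, 83.2 to 114 CPM), and erythroid and heart muscle markers were present in every group, so the libraries held more than crest or ganglia.

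p53 is a transcription factor that is stabilised when DNA is damaged or when ribosome production or splicing is disturbed, and its best known targets stop the cell cycle or start cell death. A further branch of its programme serves survival: sensors and nucleases of nucleotide excision repair, which cut out bulky lesions, a subunit of ribonucleotide reductase that supplies deoxynucleotides outside S phase, a polymerase that copies damaged templates, and metabolic enzymes. In the cranial neural crest, p53 activity is known for causing craniofacial defects when ribosome production is impaired. The title of the series names mis-splicing of Mdm2, the main antagonist of p53, and raised p53 activity as its subject, and the comparisons below ask how this repair and metabolism branch stood in the mutants.

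In the GRCm38 annotation (GENCODE M21) the genes lay on different chromosomes, except for the pair of Ak1 and Ddb2. Xpc was at chr6:91489305-91515888, Ddb2 at chr2:91211572-91236982 (both minus strand) and Ercc5 at chr1:44147744-44181260 (plus strand). Rrm2b was at chr15:37923952-37961318 and Polk at chr13:96480690-96542579, both on the minus strand. Ak1 was at chr2:32621758-32635058 (plus strand), Dcxr at chr11:120725399-120727281 and Cpt1c at chr7:44959372-44974851 (both minus strand). Ei24 was at chr9:36779159-36797393 and Gdf15 at chr8:70629393-70632456, both on the minus strand.

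Library totals ran from 13914543 to 31172708 counts, so that 1 count corresponded to 0.0293 to 0.0751 CPM. The ribosomal RNA precursor Rn45s took 37.4% of control E9.0 replicate 1 and 4.40% to 16.2% of the other libraries. Scaling by library total alone shifted all genes by a median log2 of 0.19 between genotypes at E9.0, so values are given relative to that median, as TMM does. Eftud2 itself was at 302, 275 and 279 CPM in control and 236, 234 and 232 CPM in mutant E9.0 libraries. It was at 248, 255 and 264 against 226, 221 and 226 CPM at E9.5. Without overlap at either stage, it differed by a log2 fold change of −0.29 ± 0.05 at E9.0 (SE; edgeR adjusted p 0.0193; 0.0713 without mutant E9.0 replicate 3, 0.0645 without control replicate 1 and 0.0601 without mutant replicate 1) and −0.19 ± 0.05 at E9.5 (edgeR adjusted p 0.0906). Scaling by library total alone (−0.0824, edgeR adjusted p 0.751) and a fit of only the groups compared (−0.275, edgeR adjusted p 0.141) also ended the call at E9.0. So did a block for replicate number (−0.285, edgeR adjusted p 0.0545). Calls over all genes were 73.6% higher in mutants at E9.0 and 62.9% at E9.5; these shares were 96.2% and 47.2% when scaled by library total alone, and the E9.0 share was 48.6% with a correction for GC content and transcript length.

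The promoters were read first, because genes of a shared regulator may carry its motif near their start. RefSeq windows of 250 bases upstream of a transcription start (GRCm38.p6, the same build as the mm10 named by the submitters) were matched for 7 of the 10 genes, with 12 starts among them. Xpc, Ddb2 and Rrm2b had no window and were not searched. A full p53 site holds 2 copies of a consensus decamer. The single decamer, which is its own reverse complement and so covers both strands, was searched. It occurred in 2 of these 12 windows and in 7.13% of 32851 windows of all genes. Each of these 2 windows held only 1 decamer. In 0.0639% of the windows of all genes 2 decamers lay at most 13 bases apart. Both matches, before starts of Ei24 and Polk, are printed in 30 bases each, with the decamer in capitals.

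Ei24: ccagctgccccgtgcggcccGGGCATGCCC

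Polk: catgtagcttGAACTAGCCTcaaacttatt

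The printed Ei24 bases span chr9:36797335-36797364 on the minus strand, and the decamer lay 10 to 1 bases before the RefSeq start, inside a first exon that GENCODE M21 begins further upstream. The printed Polk bases span chr13:96519399-96519428 on the minus strand, and the decamer lay 231 to 222 bases before an internal start of the gene. The other Polk window, before its first start (chr13:96542580-96542829), held no decamer. No decamer was found before any of the 4 starts of Ak1, the gene with the clearest change. The 250 bases before its first start (chr2:32621508-32621757, plus strand) are shown so that its promoter can be set against those lines, and nothing is capitalised because it held no match.

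Ak1: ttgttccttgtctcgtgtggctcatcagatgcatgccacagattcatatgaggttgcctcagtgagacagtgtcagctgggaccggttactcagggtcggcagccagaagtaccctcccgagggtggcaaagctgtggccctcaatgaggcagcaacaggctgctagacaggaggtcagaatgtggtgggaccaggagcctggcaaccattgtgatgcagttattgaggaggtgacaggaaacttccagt

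A match is a description of letters and not a binding site, and sites of p53 in introns were outside these windows.

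Levels per kilobase of annotated exon spread widely across the 10 genes in control E9.0 libraries. Ei24 was highest, at 16.4 ± 0.198 CPM per kb (SD, n = 3), followed by Xpc at 6.57 ± 0.191, Ercc5 at 5.02 ± 0.0942 and Ak1 at 4.55 ± 0.329 CPM per kb. These 4 did not overlap with their neighbours in the order. Polk (1.64 ± 0.195), Dcxr (1.54 ± 0.458), Cpt1c (1.31 ± 0.0440) and Ddb2 (1.29 ± 0.0874 CPM per kb) formed a run in which each overlapped with the next. Rrm2b followed at 0.810 ± 0.0777 CPM per kb and Gdf15 had no count. The place of Ak1 in this order differed between groups: it was the fourth in control E9.0 libraries and stood above Xpc, without overlap, in the other 3 groups.

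At E9.0 the mutants showed a split among these genes. Ak1 rose about 2-fold, Dcxr, Polk, Cpt1c, Ei24 and Ercc5 were higher in every mutant than in every control library without passing the threshold, and Xpc, Ddb2 and Rrm2b overlapped between the genotypes. Of the 9 tested genes, 1 was called higher and 0 lower (edgeR adjusted p under 0.05), where 0.432% of all tested genes were called higher and 0.155% lower. At an unadjusted p under 0.05, 6 were higher and 0 lower, where 6.76% of all tested genes were higher at that level. The same 6 did not overlap between the groups, as did 9.07% of all tested genes in the direction of higher in mutants. The median log2 fold change of all 9 was 0.265, against −0.0043 for all tested genes. DESeq2 called 4 of the 9 higher (Ak1, Dcxr, Polk and Ei24), where it called 0.952% of all tested genes higher.

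At E9.5 Ak1 was called again, Ei24 was higher without overlap, and the other 7 overlapped between the genotypes. Again 1 of 9 was called higher and 0 lower, where 1.19% of all tested genes were called higher and 0.702% lower. In 2 of the 9 the groups did not overlap, with mutants higher, as in 11.4% of all tested genes. The median of the 9 was −0.0276, against −0.00255 for all tested genes.

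**Figure D1:**
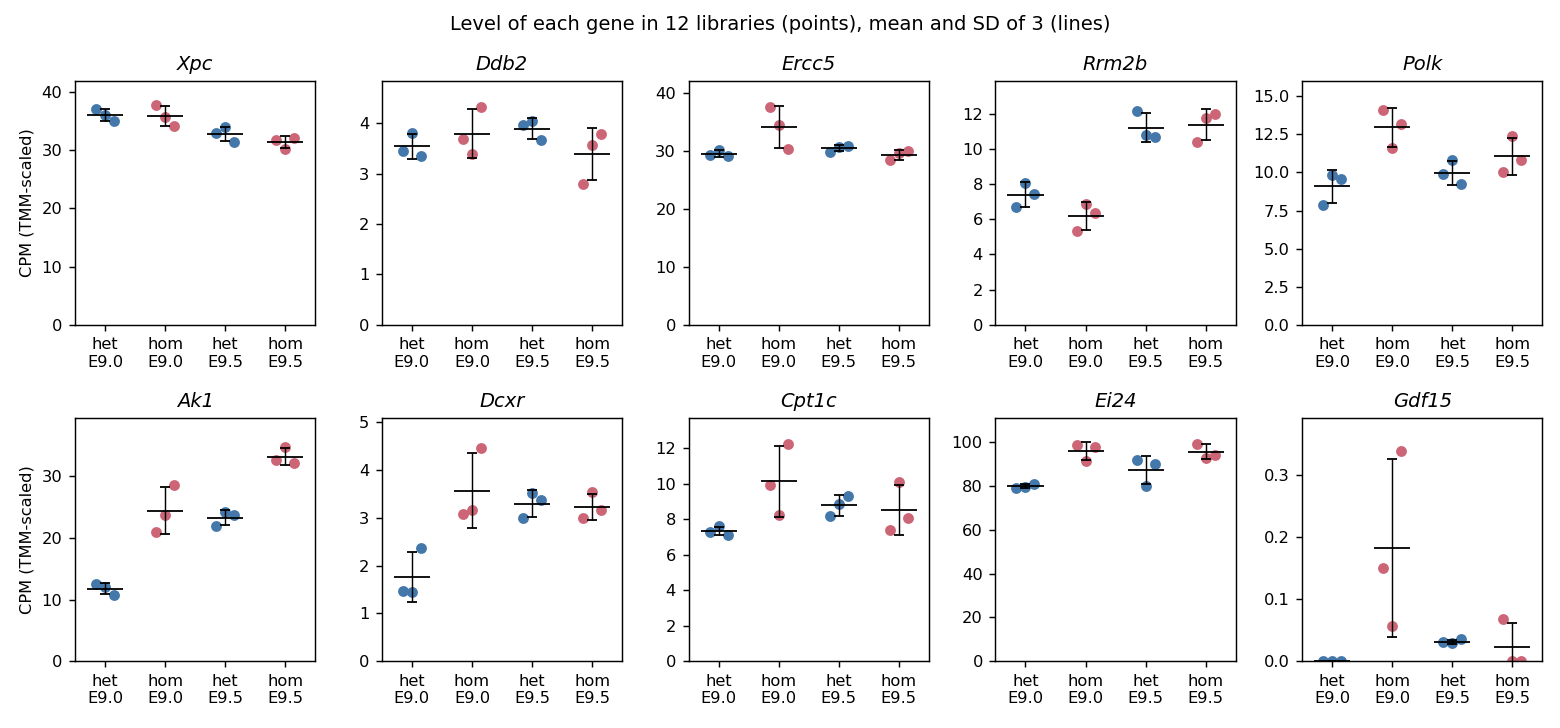
Points are the TMM-scaled CPM of each of 12 libraries (3 in each of the control, het, and mutant, hom, groups at E9.0 and E9.5), with the mean and SD as lines; each gene has its own linear axis from 0. Ak1 in mutant libraries lay above the controls of the same stage at both stages, and Dcxr, Polk, Cpt1c and Ercc5 did so at E9.0 but not at E9.5.

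The excision repair genes come first by role. Xpc, the sensor that scans the genome for distorted helices, was at 37.1, 36.1 and 35 CPM in control and 37.7, 35.7 and 34.2 CPM in mutant E9.0 libraries. At E9.5 it was at 33.0, 33.9 and 31.4 CPM in controls and 31.8, 30.2 and 32.1 CPM in mutants. The groups overlapped at both stages, with log2 differences of −0.0081 ± 0.067 (SE) at E9.0 and −0.06 ± 0.07 at E9.5 (edgeR adjusted p 0.970 and 0.774). The 95% interval at E9.0 ran from −0.15 to 0.14, so a rise of the size seen in Ak1 lay outside it.

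Ddb2, the damage-binding subunit that recruits Xpc to ultraviolet lesions, is a p53 target in human cells whose mouse counterpart is known to lack that response. It was at 3.45, 3.81 and 3.35 CPM in control and 3.68, 3.38 and 4.32 CPM in mutant E9.0 libraries, which overlapped. At E9.5 controls were at 3.96, 4.05 and 3.66 CPM and mutants at 2.80, 3.56 and 3.79 CPM, again with overlap. The log2 differences were 0.10 ± 0.17 at E9.0 and −0.20 ± 0.15 at E9.5 (edgeR adjusted p 0.845 and 0.633). Its exons share 652 bases with Acp2 on the other strand, and the strand setting of the counting is not given in the sources used here, so reads of both genes may not be separable.

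Ercc5, the structure-specific endonuclease XPG, was at 29.3, 30.1 and 29.0 CPM in control and 37.5, 34.4 and 30.2 CPM in mutant E9.0 libraries. All 3 mutants were above all 3 controls, by a narrow margin in mutant replicate 3. The log2 difference of 0.21 ± 0.08 missed the threshold (edgeR adjusted p 0.273; exact permutation p 0.1, the smallest that 3 against 3 libraries allow). It was 0.133 without mutant replicate 1 and 0.403 when scaled by library total alone. At E9.5 controls were at 29.8, 30.7 and 30.8 CPM and mutants at 28.3, 29.5 and 30 CPM, a difference of −0.06 ± 0.08 (edgeR adjusted p 0.840).

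The excision repair pathway as a list of 24 genes, all tested, gave 0 calls at either stage by edgeR's adjusted p. At an unadjusted p under 0.05 it had 4 genes higher and 1 lower at E9.0, where 6.76% of all tested genes were higher, and 0 at E9.5. The list had a median log2 fold change of 0.0034 (E9.0) and −0.0054 (E9.5), next to the medians of all tested genes.

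Nucleotide supply and damage bypass follow. Rrm2b, the p53-inducible small subunit of ribonucleotide reductase, was at 6.68, 8.09 and 7.44 CPM in control and 5.33, 6.87 and 6.35 CPM in mutant E9.0 libraries. A 2-sided exact permutation of these values gave p 0.2, and the groups overlapped with the mutants on the low side. The log2 difference was −0.26 ± 0.13 (edgeR adjusted p 0.404), with a 95% interval from −0.53 to 0.02. At E9.5 controls were at 12.2, 10.8 and 10.7 CPM and mutants at 10.4, 11.8 and 12 CPM, a difference of 0.0161 ± 0.11 (edgeR adjusted p 0.974). An antisense transcript annotated as Gm49085 shares 734 exon bases with Rrm2b.

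Rrm2, the small subunit used in S phase, was far more abundant than Rrm2b in every library, and the ratio of their levels per kilobase of exon ran from 159 to 218 at E9.0 and from 102 to 122 at E9.5. Its genotype difference, first at E9.0 and then at E9.5, came to −0.12 ± 0.05 and −0.09 ± 0.05 (edgeR adjusted p 0.329 and 0.468). The large subunit Rrm1 was at 0.0037 ± 0.056 and −0.04 ± 0.06 (edgeR adjusted p 0.985 and 0.837). Among 12 tested genes of ribonucleotide reductase and deoxynucleotide supply, 0 were called at either stage. In the average over stages 1 fell, the salvage enzyme thymidine kinase Tk1 (−0.18 ± 0.04, edgeR adjusted p 0.0366), where 1.14% of all tested genes were called lower.

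Polk, the translesion polymerase kappa, was at 7.85, 9.86 and 9.54 CPM in control and 14.1, 11.6 and 13.2 CPM in mutant E9.0 libraries. Every mutant lay above every control. The log2 difference was 0.50 ± 0.12, just outside the threshold (edgeR adjusted p 0.0894, and 0.029 to 0.167 over 11 other settings). At E9.5 it was at 9.90, 10.8 and 9.23 CPM in controls and 10, 12.4 and 10.8 CPM in mutants, with overlap (0.15 ± 0.11, edgeR adjusted p 0.655; 0.0602 without mutant replicate 2, and 0.219 without mutant replicate 1). Averaged over both stages Polk rose by 0.32 ± 0.08 (edgeR adjusted p 0.0474). That call was lost in 9 of 12 fits that left out 1 library, with adjusted p up to 0.132 and log2 values from 0.28 to 0.36: it remained without mutant E9.0 replicate 2, control E9.5 replicate 2 or mutant E9.5 replicate 1. It was also lost when scaled by library total alone (adjusted p 0.0801), with limma-voom (0.067) and without robust dispersions (0.0528). A block for replicate number also ended it (0.32, edgeR adjusted p 0.0539).

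Of 9 tested translesion genes, 1 was called higher at E9.0, where 0.432% of all tested genes were, and it was not Polk. Rev1, the scaffold on which translesion polymerases assemble, rose by 0.29 ± 0.06 at E9.0 (edgeR adjusted p 0.0293) and was at 0.06 ± 0.06 at E9.5 (edgeR adjusted p 0.715). The list had a median of −0.02 (E9.0) and 0.05 (E9.5). Polymerase eta, Polh, which is known as a p53 target in human cells, was at −0.02 ± 0.10 and −0.10 ± 0.10 (edgeR adjusted p 0.947 and 0.779).

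The metabolic enzymes held the largest differences. Ak1, the cytosolic adenylate kinase that converts adenine nucleotides into one another, was at 12.5, 12.1 and 10.8 CPM in control and 21.0, 23.7 and 28.6 CPM in mutant E9.0 libraries. No library of either group came near the other, and the lowest mutant was above the highest control by more than the whole range of the controls. Ak1 rose by 1.06 ± 0.11 on the log2 scale (2.08-fold, 95% interval of the log2 value 0.83 to 1.28, edgeR adjusted p 6.3e-05), which was the sixth smallest p of all tested genes. At E9.5 it was at 22, 24.2 and 23.7 CPM in controls and 32.7, 34.7 and 32.2 CPM in mutants, again without overlap, and rose by 0.51 ± 0.09 (1.42-fold, edgeR adjusted p 0.0096). Both calls held in all 6 fits that left out 1 library of that stage, with adjusted p up to 9.7e-04 at E9.0 and 0.0498 at E9.5. Scaled by library total alone, the E9.5 value was 0.50 and lost its call (adjusted p 0.12).

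Ak1 is also abundant in muscle and red blood cells, so those markers are given beside it. The 5 heart muscle markers summed to 18.9 to 100 CPM in control and 45.1 to 165 CPM in mutant E9.0 libraries, and to 892 to 1180 against 1120 to 1450 CPM at E9.5. The 5 erythroid markers summed to 641 to 1140 against 534 to 1160 CPM at E9.0 and to 3950 to 5180 against 2780 to 5080 CPM at E9.5. All 5 heart muscle markers were higher in mutants at both stages (median log2 0.433 and 0.365), as were 49% and 49.2% of all tested genes. All 5 erythroid markers were lower at both stages (median log2 −0.249 and −0.194), and 0 of either list were called by edgeR. Each of these 10 markers had counts in every group, although Nppa, a heart atrial gene, was at 0 in some mutant E9.0 libraries. Endothelial markers (5 genes) summed to 176 to 196 CPM in control and 216 to 226 CPM in mutant E9.0 libraries, with 0 called. At E9.5 they summed to 124 to 177 against 231 to 257 CPM. There 4 of 5 were called higher by edgeR (median log2 0.64), where 1.19% of all tested genes were. Neural crest markers (7 genes) summed to 328 to 350 against 275 to 301 CPM at E9.0. At E9.5 their sums were 184 to 261 against 186 to 236 CPM. By edgeR, 1 of 7 was called lower at E9.0 (median log2 −0.37), where 0.155% of all tested genes were. At E9.5, 4 of 7 were called lower (median log2 −1.14), where 0.702% of all tested genes were, and 1 was higher without a call. Cranial ganglion markers (7 genes) summed to 83.2 to 85.5 against 92.3 to 97.2 CPM at E9.0 and to 99.1 to 100 against 111 to 114 CPM at E9.5, without overlap. Their part in the result was not tested, and in these bulk libraries fewer cells of a type and less RNA per cell cannot be told apart.

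Other adenylate kinases did not share this call. Of 8 tested adenylate kinases, 1 was called higher at each stage, Ak1, with a median over the 8 of 0.04 (E9.0) and 0.09 (E9.5). Of all tested genes 0.432% (E9.0) and 1.19% (E9.5) were called higher. The E9.0 values ran from −0.69 to 1.1, and the highest belonged to another, uncalled kinase with 1 to 11 counts per mutant library.

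Dcxr, a reductase of the xylulose pathway that also detoxifies dicarbonyls, was at 1.47, 1.45 and 2.36 CPM in control and 3.08, 3.15 and 4.46 CPM in mutant E9.0 libraries. The groups did not overlap, although control replicate 3 stood closer to the lowest mutant than to the nearest other control. The log2 difference of 0.98 ± 0.22 (1.97-fold) missed the threshold (edgeR adjusted p 0.064). Leaving out 1 library gave 0.786 (without mutant replicate 3, edgeR adjusted p 0.284) to 1.28 (without control replicate 3, edgeR adjusted p 0.0262), and only the latter of these 6 fits called it. Over 11 other settings the adjusted p ran from 0.0131 to 0.166. Counts were low, at 20 to 66 per E9.0 library. At E9.5 controls were at 2.99, 3.52 and 3.37 CPM and mutants at 3, 3.53 and 3.15 CPM, with overlap (−0.0276 ± 0.19, edgeR adjusted p 0.974). None of the 5 tested genes of the xylulose and sorbitol pathway was called at either stage by edgeR. At an unadjusted p under 0.05, 1 was higher at E9.0, Dcxr, where 6.76% of all tested genes were, and 1 was lower at E9.5.

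Cpt1c, the brain isoform of carnitine palmitoyltransferase, which sits in the endoplasmic reticulum, was at 7.26, 7.61 and 7.13 CPM in control and 9.92, 8.24 and 12.2 CPM in mutant E9.0 libraries. The mutants were above the controls but spread more widely among themselves. The log2 difference was 0.46 ± 0.15 (edgeR adjusted p 0.211), and 0.300 without mutant replicate 3 (edgeR adjusted p 0.539). At E9.5 controls were at 8.17, 8.83 and 9.30 CPM and mutants at 7.38, 10.1 and 8.06 CPM, with overlap (−0.04 ± 0.14, edgeR adjusted p 0.955). An antisense transcript, 6530437J22Rik, shares 366 exon bases with it.

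Its relatives of the mitochondrial carnitine shuttle gave no call. Cpt1a, the liver isoform on the outer mitochondrial membrane, was at or below 0.744 CPM in E9.0 libraries, with a difference of 0.83 ± 0.46 (edgeR adjusted p 0.450). Cpt2, the inner membrane enzyme, was at 0.05 ± 0.12 at E9.0 and 0.07 ± 0.11 at E9.5 (edgeR adjusted p 0.888 and 0.870). Of 6 tested genes of the shuttle 0 were called at either stage, and 1 was higher at an unadjusted p under 0.05 at E9.0, Cpt1c. Of all tested genes 6.76% were higher at that level.

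Ei24, a membrane protein of the endoplasmic reticulum with a role in autophagy, was at 78.8, 79.6 and 80.7 CPM in control and 98.7, 91.3 and 97.5 CPM in mutant E9.0 libraries. The controls were tightly grouped and every mutant stood well above them. The log2 difference was 0.26 ± 0.06 (1.2-fold, edgeR adjusted p 0.0664, and 0.012 to 0.152 over 11 other settings). It was called with DESeq2, upper-quartile factors and the GC and length correction, and was 0.456 when scaled by library total alone. At E9.5 controls were at 91.8, 79.8 and 90 CPM and mutants at 99.2, 92.8 and 94.2 CPM, a difference of 0.13 ± 0.06 without overlap (edgeR adjusted p 0.358), which was 0.0723 without control replicate 2, the lowest library (edgeR adjusted p 0.807). Averaged over stages Ei24 rose by 0.20 ± 0.04 (edgeR adjusted p 0.0193). Scaling by library total alone ended that call (adjusted p 0.15). It held in 9 of 12 fits without 1 library and was lost without control E9.0 replicate 2 (adjusted p 0.056), mutant E9.0 replicate 1 (0.0519) or mutant E9.5 replicate 1 (0.0508). Its promoter match is the one printed above. An antisense transcript, Gm26787, shares 324 exon bases with Ei24.

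Gdf15, a secreted stress cytokine of the TGF-beta superfamily that p53 and the ATF4 pathway both induce, was close to the limit of detection. Its counts were 0, 0 and 0 in control and 2, 1 and 5 in mutant E9.0 libraries, and 1, 1 and 1 in control and 2, 0 and 0 in mutant E9.5 libraries. Every mutant E9.0 library thus held at least 1 count and no control did (exact permutation p 0.1, the smallest possible). The 8 counts of the mutants pooled to 0.175 CPM (exact Poisson 95% interval 0.0758 to 0.346, counting error only), and the same interval for 0 counts in the pooled controls reached 0.0664 CPM. At E9.5, 3 and 2 counts give 0.0316 and 0.0225 CPM (0.00651 to 0.0922 and 0.00272 to 0.0812), which does not separate the genotypes at this depth.

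Genes of the ATF4 stress pathway were examined because Gdf15 belongs to both programmes. Of 12 tested, 0 were called at E9.0 or E9.5 by edgeR, with 2 higher and 0 lower at an unadjusted p under 0.05 at each stage and medians of 0.03 and 1.2e-05. At that level 13.3% of all tested genes passed at E9.0 and 13.4% at E9.5, in either direction. In the average over stages 2 rose, where 1.82% of all tested genes were called higher. They were Ddit4 (0.64 ± 0.11, edgeR adjusted p 0.0106) and Atf3 (0.42 ± 0.10, edgeR adjusted p 0.0422), both of which p53 is also known to induce. Atf4 itself was at 0.09 ± 0.06 at E9.0 (edgeR adjusted p 0.553), and Asns, which makes asparagine and is a standard ATF4 target, at −0.05 ± 0.06 (edgeR adjusted p 0.813). The part of either programme in these values was not tested.

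**Figure D2:**
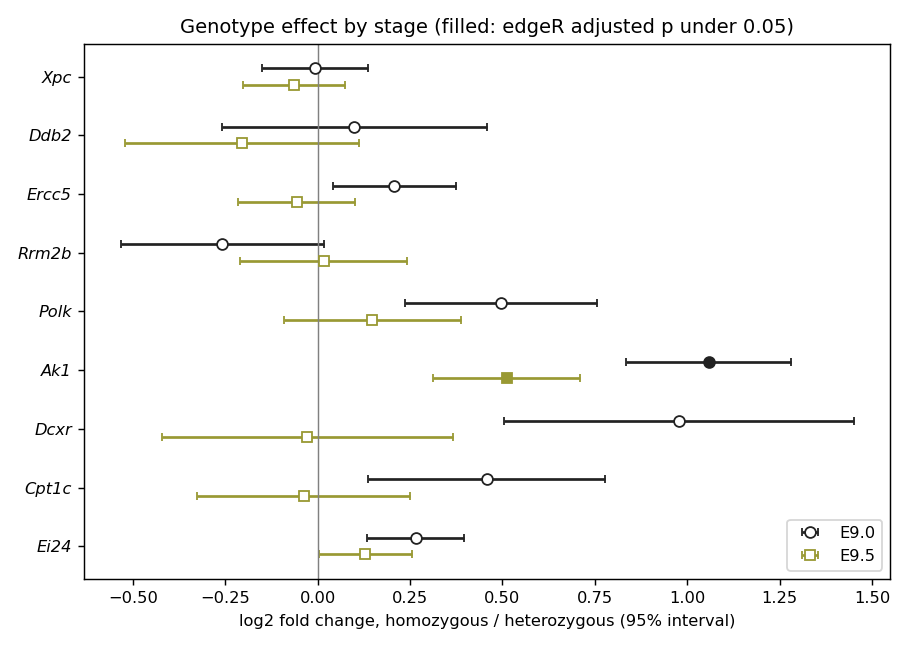
The horizontal axis is the log2 fold change of mutant over control, points are the 9 tested genes at E9.0 (circles) and E9.5 (squares), bars are 95% intervals and filled points passed an edgeR adjusted p of 0.05. Ak1 is filled at both stages (1.06 and 0.51), and the E9.0 intervals of Dcxr, Polk, Cpt1c, Ei24 and Ercc5 lie above 0 while those of Xpc, Ddb2 and Rrm2b include it.

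Averaged over both stages, 3 of the 9 genes rose (Ak1, Polk and Ei24) and 0 fell, where 1.82% of all tested genes were called higher. Of all calls in this average 61.5% were higher in mutants, 84.7% when scaled by library total alone and 44.6% with the GC and length correction. Ak1 rose by 0.79 ± 0.07 (edgeR adjusted p 1.6e-05), and this call held in all 12 fits without 1 library. Dcxr was at 0.48 ± 0.15 and did not pass (edgeR adjusted p 0.0963), except without control E9.0 replicate 3 (0.628, edgeR adjusted p 0.0411) among the 12 fits that left out 1 library.

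Whether the genotype effect itself differed between stages was tested as an interaction, taken as the E9.5 effect minus the E9.0 effect. None of the 9 genes was called by edgeR, where 0.0675% of all tested genes were, and DESeq2 also called 0 of the 9. At an unadjusted p under 0.05, 4 of the 9 had a smaller effect at E9.5 (Dcxr, Ak1, Cpt1c and Ercc5), against 4.52% of all tested genes in that direction, and 0 a larger one. The difference was −1.01 ± 0.29 for Dcxr (edgeR adjusted p 0.295), −0.55 ± 0.14 for Ak1 (edgeR adjusted p 0.237), −0.50 ± 0.20 for Cpt1c (edgeR adjusted p 0.513) and −0.26 ± 0.11 for Ercc5 (edgeR adjusted p 0.513). A smaller effect at E9.5 is therefore not established for any single gene.

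The same libraries show how these genes moved from E9.0 to E9.5. In controls 3 of 9 rose, Ak1 by 0.99 ± 0.10 (edgeR adjusted p 2.8e-06), Dcxr by 0.86 ± 0.21 (edgeR adjusted p 0.0046) and Rrm2b by 0.60 ± 0.12 (edgeR adjusted p 8.2e-04), and 0 fell, where 19.2% of all tested genes rose and 16.0% fell. In mutants 2 of 9 rose, Rrm2b by 0.87 ± 0.12 (edgeR adjusted p 4.5e-05) and Ak1 by 0.44 ± 0.10 (edgeR adjusted p 0.0021), and 2 fell, where 19.6% of all tested genes rose and 15.8% fell. The falls were those of Ercc5 (−0.22 ± 0.08, edgeR adjusted p 0.0374) and Xpc (−0.19 ± 0.07, edgeR adjusted p 0.0324). Each was lost in 5 of 6 fits without 1 mutant library and held only without mutant E9.0 replicate 3. Scaled by library total alone, 96.4% of the stage calls in controls and 87.1% in mutants were higher. These shares were 32% and 33.4% with the GC and length correction. The falls of Xpc and Ercc5 lost their calls with library totals (edgeR adjusted p 0.925 and 0.852). They also did with no low-count filter (edgeR adjusted p 0.167 and 0.134). Both stage comparisons move with heart muscle and erythroid markers, whose sums are given above, and the part of these cells was not tested.

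Set side by side, mutant E9.0 and control E9.5 libraries overlapped in 6 of the 9 tested genes (Ddb2, Ercc5, Ak1, Dcxr, Cpt1c and Ei24) and did not in 3 (Xpc, Rrm2b and Polk), where 48.0% of all tested genes did not overlap. Ak1 was at 24.4 ± 3.81 CPM in mutant E9.0 and 23.3 ± 1.18 CPM in control E9.5 libraries (SD, n = 3 each), and Dcxr at 3.56 ± 0.775 and 3.29 ± 0.276 CPM. Rrm2b was at 6.18 ± 0.781 CPM in mutant E9.0 and 11.3 ± 0.837 CPM in control E9.5 libraries. These groups differ in both genotype and stage and were not compared by a test.

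**Figure D3:**
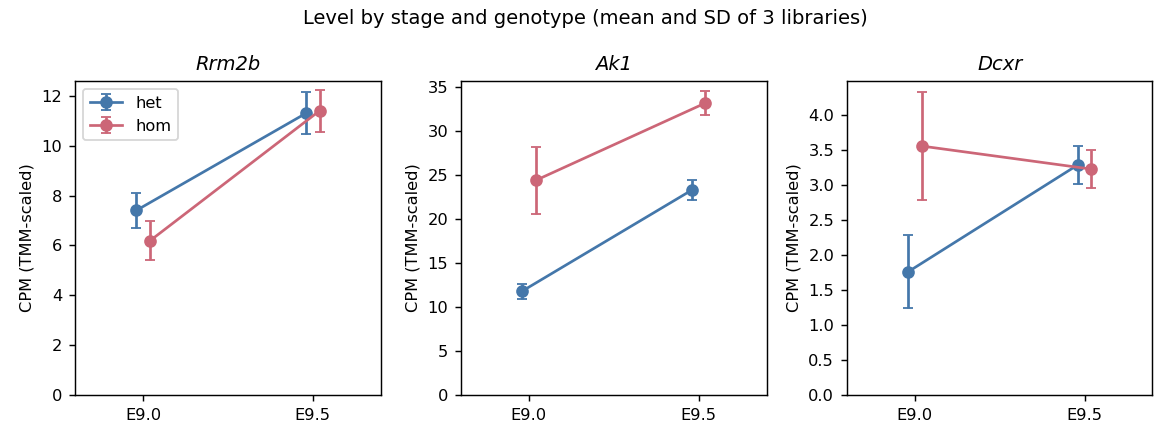
Lines join the mean TMM-scaled CPM at E9.0 and E9.5 in control (het) and mutant (hom) libraries, with bars for the SD of 3. Rrm2b rose with stage in both genotypes (0.60 and 0.87 on the log2 scale), Ak1 stood higher in mutants at both stages, and the Dcxr means were 1.76 and 3.56 CPM at E9.0 and 3.29 and 3.23 CPM at E9.5 (control first), a genotype difference that passed the threshold at neither stage.

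Other p53 targets put these values in context, with the caution that all lists were chosen with earlier results of these libraries known. Of 16 tested further targets with roles in repair and metabolism, 1 was called at E9.0 and 0 at E9.5 by edgeR, and their medians were 0.06 and −0.06. The gene called was Sesn2, a stress-induced regulator of TORC1 and antioxidant defence, which rose by 1.15 ± 0.13 at E9.0 (edgeR adjusted p 2.2e-04) and was at 0.48 ± 0.12 at E9.5 (edgeR adjusted p 0.0686). Of 19 tested targets with roles in arrest and death, 13 rose and 0 fell at E9.0, with a median of 0.61 (0.432% of all tested genes were called higher), and 4 rose at E9.5, with a median of 0.29 (1.19% of all tested genes). The E9.0 median of the 9 genes described here, 0.265, lay between those of these lists, and no test of the difference between lists was made.

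**Figure D4:**
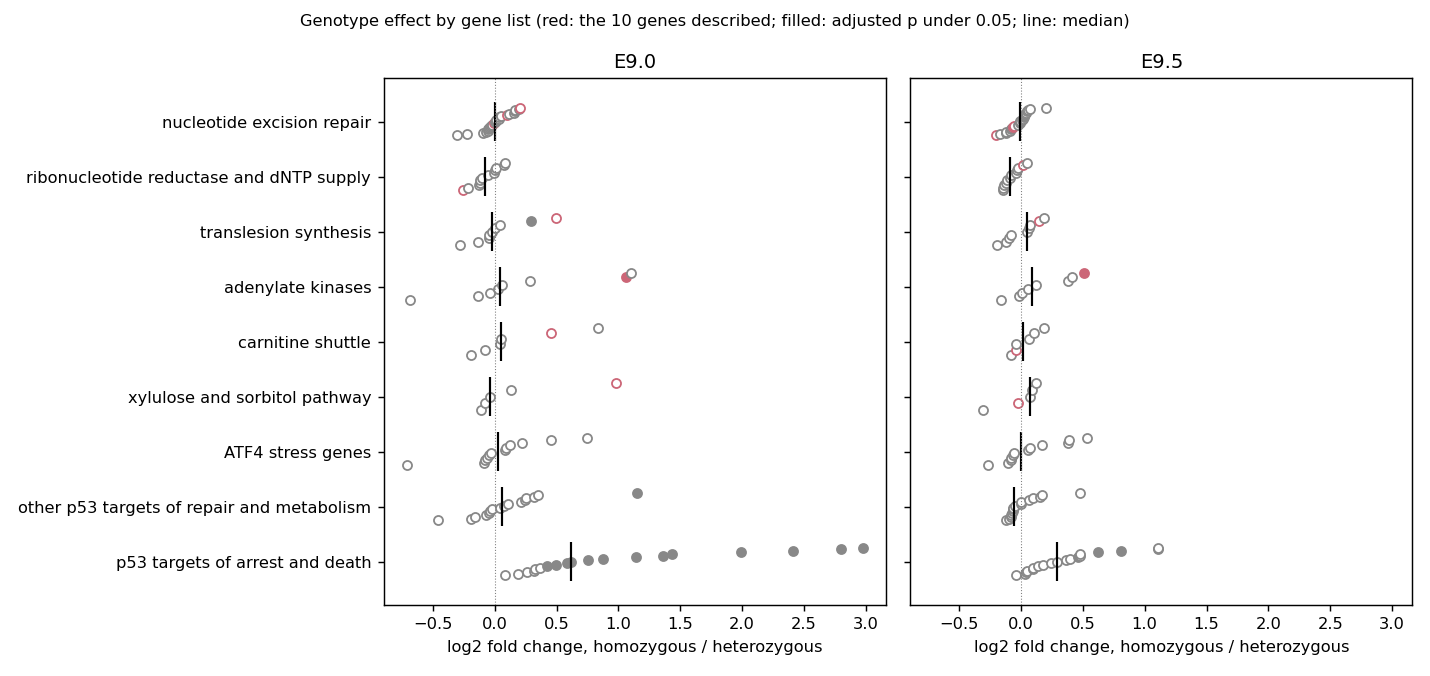
Each point is a gene's log2 fold change of mutant over control at E9.0 (left) and E9.5 (right) in the lists named on the vertical axis; red points are the genes described here, filled points passed an edgeR adjusted p of 0.05 and black lines are list medians. At E9.0 the arrest and death list (median 0.61, 13 of 19 filled) lies to the right of the excision repair list (median 0.0034, 0 of 24 filled), and Ak1 is the filled red point at both stages.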

How the data were processed

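The authors deposited 1 table of raw counts per gene symbol for 12 libraries; per the submitters' processing notes, cutadapt, STAR, featureCounts and MultiQC were used with the mm10 build, and versions, annotation and strand setting are not given in the sources used here. Columns were matched to samples by the names in the labels, with 0 left over. The table was analysed in R 4.3.3 with edgeR 4.0.16 (filterByExpr, TMM, quasi-likelihood F test with robust dispersions, 1 mean per group over all 12 libraries); p-values were adjusted by Benjamini-Hochberg over 14810 genes, two-sided, with a threshold of 0.05. The filter left out 9611 symbols with at most 0.0778% of a library's counts. SEs were derived from the estimate and the square root of its F statistic. Exon lengths and overlaps came from GENCODE M21 (GRCm38), which matched 23376 symbols directly and 678 by synonym, and promoter sequences from RefSeq.

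The fit was tested on simulated data with 200 genes changed between the E9.0 groups. Of those changed by 0.5, 1 and 2 on the log2 scale, 85.1%, 98.5% and 100% were called. There 14642 genes passed the filter. The changed genes were drawn from more abundant genes, and Dcxr and Ddb2 were too low to be among them. Counts were simulated with the spread typical of a gene's abundance and not with each gene's own. These shares are therefore not the chance of a call for the genes described here. Named were the 10 genes, Eftud2, members of the pathway lists past the threshold at either stage where a sentence needs them, and the relatives Rrm1, Rrm2, Cpt1a and Cpt2 (a further relative is not reported here); Tk1, Ddit4, Atf3, Atf4, Asns and Polh were named after their values were seen. The 10 genes and all lists were chosen with earlier results of these data known. Replicate numbers were not treated as pairs in the main fit, and whether they pair the samples was not settled. Alternatives were RLE, upper-quartile and total-count scaling, DESeq2 1.42.0, limma-voom (limma 3.58.1), no low-count filter, a minimum mean of 50 counts, no robust dispersions, only the groups compared, a replicate block, each library left out, and a GC and length correction; those for the change with stage were chosen after seeing the data.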

Additional observations from a re-analysis of the deposited data

How the results depend on the processing

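The rise of Ak1 in mutants kept its direction in every fit run at E9.0, at E9.5 and in their average, and its call in all but 1, given above. At E9.0 the number of the 9 genes past the threshold was 1, and 2 with upper-quartile factors, library totals, no filter or the replicate block, 3 with the GC and length correction and 4 with DESeq2 (1 to 2 leaving out 1 library). With library totals it was 0 at E9.5, 1 in the average (1 to 3 leaving out 1 library), 8 for stage in controls and 2 for stage in mutants, where no filter also gave 2 and leaving out 1 library 2 to 4. Over all genes, 87 calls at E9.0 became 216 (DESeq2), 51 (limma-voom) and 181 (GC and length), or 38 to 86 without 1 library. The 280 at E9.5 became 123 (library totals) and 445 (DESeq2), or 133 to 252. The 439 in the average became 737 (GC and length), or 246 to 411. The 10 interactions became 72 (DESeq2), 5 (limma-voom), 21 (replicate block) and 20 (GC and length), or 1 to 16. The 5238 for stage in mutants became 3325 with library totals.

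The values that reversed were all uncalled. Xpc at E9.0 was 0.0186 (upper-quartile), 0.19 (library totals), 0.00247 (mean of at least 50 counts) and 0.00188 (only the groups compared). With library totals the averages of Ddb2 and Xpc were 0.0377 and 0.0597, the Eftud2 interaction −0.114, the stage value of Xpc in controls 0.237, and those of Ddb2, Dcxr and Ei24 in mutants 0.0102, 0.0347 and 0.165. Ei24 in mutants was 0.033 with no filter, and Ercc5 in controls −0.0221 with the GC and length correction. Leaving out 1 library gave −0.00654 to 0.181 for Ddb2 and −0.0465 to 0.0234 for Xpc at E9.0. At E9.5 it gave −0.02 to 0.0821 for Rrm2b, −0.0963 to 0.0288 for Dcxr and −0.18 to 0.0601 for Cpt1c. It gave −0.106 to 0.00842 for the average of Ddb2, and for stage in mutants −0.225 to 0.0514 for Dcxr and −0.0368 to 0.0177 for Ei24. The cause of these shifts was not tested.

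Correlations of same-numbered libraries of a stage were 0.0297 to 0.109, and those of differently numbered ones −0.196 to 0.171. With so few libraries they cannot settle whether the samples were paired. With the replicate block Dcxr was called at E9.0 (1.02, edgeR adjusted p 0.0263) and in the average (0.50, edgeR adjusted p 0.0387), and Polk in the average (0.32, edgeR adjusted p 0.0539) and Eftud2 at E9.0 (−0.285, edgeR adjusted p 0.0545) were not. Depth limits Gdf15, at 0 to 5 counts a library, and Dcxr, at 20 to 120.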
